A study of Gorilla gorilla with 12 samples.

Results

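The genes described here code for the core machinery and main regulators of pre-mRNA splicing, measured in cultured fibroblasts of gorillas. They are the 53 genes with a probe set annotated to 1 symbol that starts with HNRNP, SRSF, SF3A, SF3B, SNRP, PRPF or U2AF, out of 8226 genes with such a probe set. SNRPN was to be left out, and no probe set carried that symbol alone. The 53 genes had 72 probe sets, and each gene is represented by the probe set with the highest mean log2 intensity over the standard arrays. Of the 53 genes, 50 passed the filter on dim probe sets used for all tests, and 52 had a row in the gorilla gene table.

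Splicing removes introns from pre-mRNA on the spliceosome, which assembles anew on each intron. The U1, U2, U4, U5 and U6 small nuclear ribonucleoproteins (snRNPs) recognise the splice sites and the branch point, and the SNRP proteins build their shared ring and their particle-specific parts. U2AF and the SF3A and SF3B complexes bring the U2 particle to the end of the intron, and the PRPF proteins act in the later U4, U6 and U5 particle and in its rearrangement. SR proteins mostly promote the use of nearby exons, while hnRNPs coat the nascent transcript and often oppose them. Many of these genes are known to be more highly expressed in growing cells than in resting ones.

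The samples were 12 expression arrays of fibroblast lines, each line from 1 gorilla, with 1 array per culture. A further culture of male line 2, from a donor of 26 years, was harvested when it covered 50% of the dish. The other 11 arrays held lines harvested under what the labels call standard conditions, whose details were not used here. The 5 male lines came from donors of 19, 26, 24, 18 and 3 years, and the 6 female lines from donors of 19, 19, 35, 26, 30 and 2 years. No genotype or treatment other than the density of the harvest is named, and the lines are numbered here in the order of the labels. Since each standard line is from a separate donor, the p-values rest on the spread between lines, and their precision is limited by how few arrays there are.

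Values are deposited intensities on a linear scale with a floor of 100, where 40.1% to 49.2% of the 12625 probe sets stood, depending on the array. The probe sets were designed on human sequence, so levels are compared between arrays for 1 gene and not between genes. Differences and slopes are in log2 units after quantile normalization, while intensities are printed as deposited. The line labelled female 3 had 2595 for the Y-linked gene RPS4Y1, against 2662 to 4363 in the standard male arrays and 100 to 115 in the other female lines, so its label is in doubt and results are given with and without it. The 12 fibroblast markers with a probe set, of 13 listed, were above the floor on all 12 arrays, among them the collagen genes COL1A1 and COL3A1. The epithelial keratins KRT5, KRT14 and KRT19, the leukocyte marker PTPRC and the endothelial marker VWF were at the floor on all 12 arrays. Other markers of these and further cell types were not, among them CD68 (420 to 1080), CD3E (140 to 252), CD14 (100 to 1673), TEK (100 to 327), the muscle gene MYOG (100 to 550) and the melanocyte gene MLANA (106 to 247). In such bulk samples, fewer cells of a type and less RNA per cell cannot be told apart.

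Most of the splicing genes were measured well above the floor. Of the 53 genes, 45 were above it on all 12 arrays. SNRPD1, a protein of the Sm ring that all these particles but U6 share, stood at the floor on all 12 arrays. HNRNPF, a G-tract binding hnRNP, had 120 in male 1 and the floor on the other arrays. SF3B3, a subunit of SF3B, had 134 in the standard culture of male 2 and the floor elsewhere. These are the 3 genes below the filter. For them the arrays give only an upper limit on the signal of a probe set designed on human sequence, not on the level of the gene. The chosen probe sets of 12 genes carry a suffix beyond the plain one, in most cases a mark of probes shared with other transcripts. The gene measured is thus less certain for HNRNPA1, HNRNPA2B1, HNRNPA3, HNRNPC, HNRNPDL, SF3A2, SNRPB, SNRPE, SRSF3, SRSF5, SRSF6 and SRSF8.

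Between the 11 standard lines the splicing genes varied about as much as other genes. The median SD of the 50 tested genes was 0.40 log2 units (n = 11 lines), and that of all 7535 tested probe sets was 0.41. SF3B2, an SF3B subunit, was the steadiest, with intensities of 1060 to 1550 and an SD of 0.14. HNRNPUL1 (SD 0.22), SRSF11 (0.25) and HNRNPK (0.25), an hnRNP that binds C-rich RNA, followed. At the other end stood SF3A2, an SF3A subunit, with 423 in male 1 and 2809 in female 1 (SD 0.89), and PRPF31, which tethers the U4 and U6 particle to U5, with 129 in male 4 and 901 in female 6 (SD 0.88). Their other probe sets gave narrower ranges. A further PRPF31 probe set ran from 239 in male 2 to 506 in female 4, with 242 in male 4 and 379 in female 6. A further SF3A2 probe set ran from 435 to 1156, with 732 in male 1 and 736 in female 1. Another ran from 266 to 1165 (SD 0.79), with 572 in male 1 and its highest value in female 1, the direction of the chosen probe set. HNRNPR (SD 0.62), the SR-related protein gene SRSF10 (0.61), HNRNPL (0.57), PRPF4 (0.56), PRPF19 (0.55) and SNRPA (0.54) completed the 8 most variable genes.

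Many of these genes were high or low in the same lines. The mean of the 50 tested genes was 9.88 log2 units in male 3, 9.78 in female 5 and 9.71 in male 1, and it was 9.33 in the line labelled female 3, 9.34 in female 4 and 9.35 in male 2. The mean of all tested probe sets lay between 8.58 and 8.60 on every array. Of the 50 genes, 16 had their highest standard level in male 3, 15 in male 1 and 7 in female 5, while 14 had their lowest in female 4, 8 in male 2 and 7 each in females 3 and 6. The same counts over all tested probe sets were not made. As a description over 11 arrays that share 1 normalization, the median correlation between pairs of the 50 genes was 0.21, against -0.00084 between pairs of all tested probe sets. The genes closest to the mean of the other 49 were the SR protein gene SRSF1 (r = 0.94), HNRNPM (0.93) and SNRPB (0.91). U2AF2 (-0.54), PRPF3 (-0.41) and HNRNPL (-0.26) ran the other way.

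**Figure D1:**
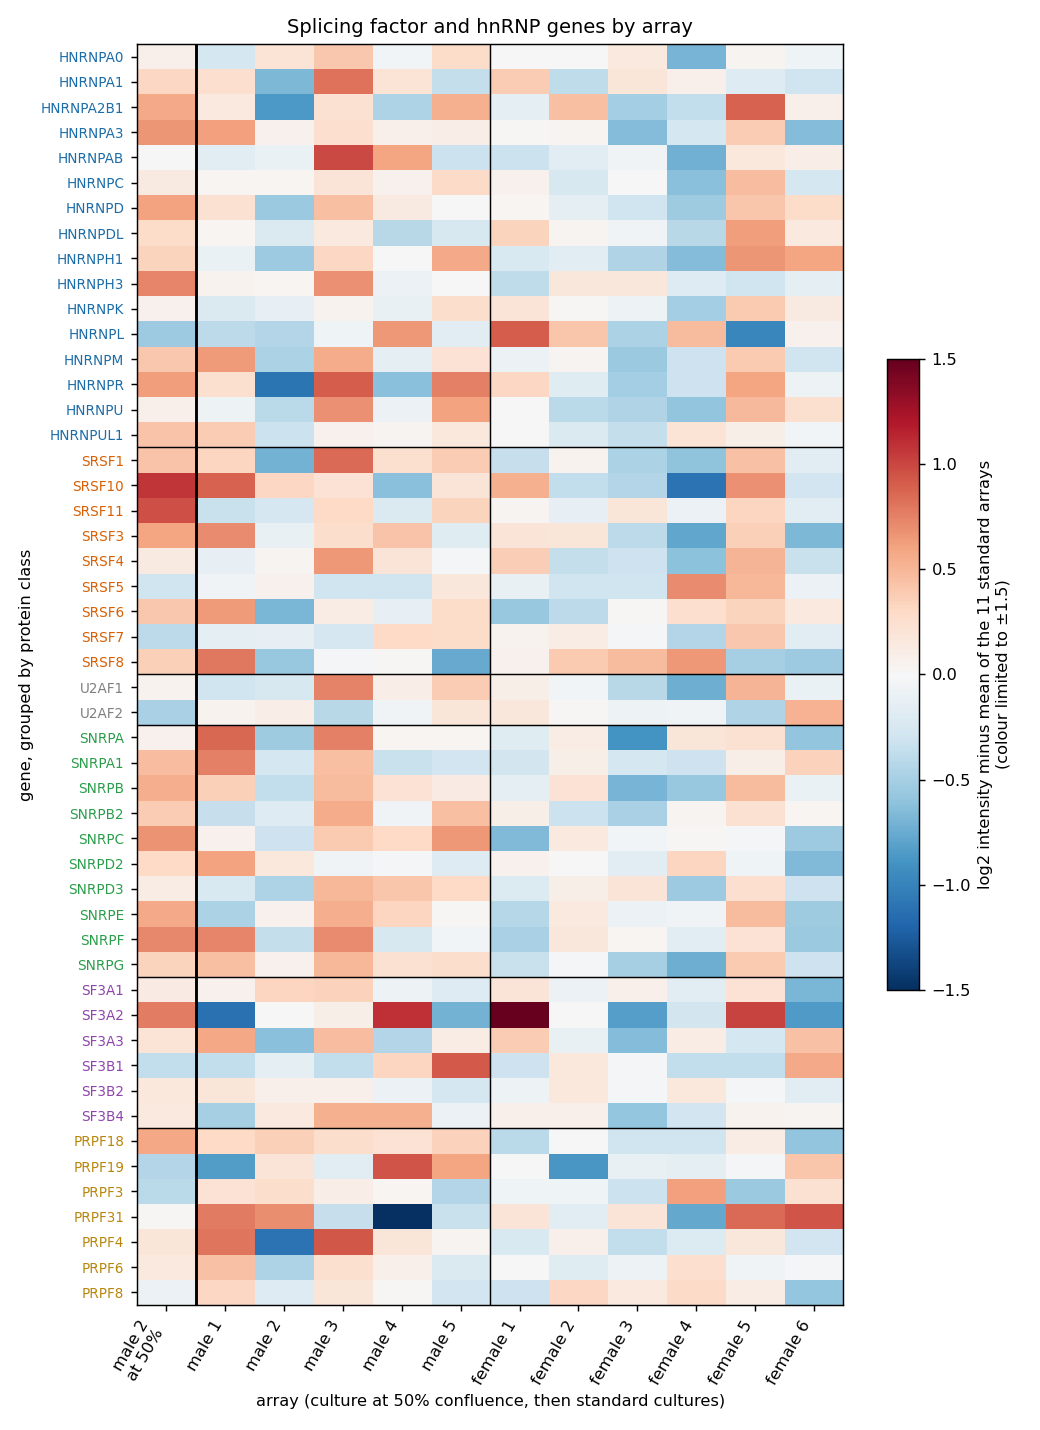
Log2 intensity of the 50 tested genes (rows, grouped by protein class) on each of the 12 arrays (columns), as the difference from the mean of the 11 standard arrays. Males 3 and 1 and female 5 are mostly red, with group means of 9.88, 9.71 and 9.78, while male 2, female 3 and female 4 are mostly blue.

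Proliferation was read from TOP2A, the topoisomerase that untangles replicated chromosomes, and CCNB2, a mitotic cyclin. TOP2A had intensities of 1752, 596, 707, 925 and 861 in males 1 to 5 and of 593, 642, 204, 295, 1114 and 665 in females 1 to 6. CCNB2 had 1224, 182, 269, 424 and 755 in males 1 to 5 and 208, 552, 134, 190, 671 and 237 in females 1 to 6. On these probe sets, the brightest of each gene, both were lowest in the line labelled female 3 and highest in male 1. A further TOP2A probe set had 655 in male 1, below 664 in male 5 and 713 in female 5. Another had its highest value, 486, in male 1, and both further ones were lowest in the line labelled female 3. The mean log2 value of the chosen TOP2A and CCNB2 probe sets, used as an index, ran from 7.36 in the line labelled female 3 to 10.47 in male 1.

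Splicing genes were mostly higher in lines with a higher index, but none passed the test over all probe sets. Of the 50 genes, 41 had a positive slope, with a median of 0.12 log2 units per log2 unit of the index, while 50.6% of the 7531 tested probe sets had a positive slope and their median was 0.0023. At an unadjusted p under 0.05, 10 genes had a positive slope (20%), against 5.98% of all tested probe sets, and 0 had a negative one, against 5.23%. Since many of these genes rose and fell together between lines, such counts are not counts of separate observations. limma called 0 of the 50 genes at an adjusted p under 0.05, against 44 of 7531 probe sets (0.584%).

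The Sm ring protein gene SNRPB came nearest to the threshold. It had 8947, 4665, 8476, 6974 and 6666 in males 1 to 5 and 5355, 6630, 3909, 4767, 8259 and 5343 in females 1 to 6. Its slope was 0.39 (SE 0.11, limma adjusted p = 0.157), or 1.31-fold per doubling of the index genes. The lowest value was in the line with the lowest index. The highest deposited intensity was in male 1, the line with the highest index, but after normalization female 5 (13.07 log2 units) and male 3 (13.07) were above male 1 (12.95). The chosen probe set carries the suffix for shared probes. A further SNRPB probe set gave a slope of 0.36.

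The other 5 genes with the smallest p and a positive slope came from 3 protein classes. HNRNPM, a regulator of alternative exons, had 2276 in male 1, 923 in the line labelled female 3 and a median of 1264, with a slope of 0.38 (SE 0.11, limma adjusted p = 0.194). SNRPG, another Sm ring protein, had a slope of 0.37 (SE 0.11, limma adjusted p = 0.225). HNRNPA3 had a slope of 0.35 (SE 0.11, limma adjusted p = 0.225), and a dim further probe set, at 100 to 226, had a slope of 0.10. SNRPA, the U1 particle's A protein, had the steepest slope of the 50, at 0.43 (SE 0.14, limma adjusted p = 0.250), with 5346 in male 1 and 1479 in the line labelled female 3. SRSF1, the prototype SR protein, had a slope of 0.40 (SE 0.13, limma adjusted p = 0.264), and its further probe set one of 0.23. The remaining genes at an unadjusted p under 0.05, named after their values were seen, were HNRNPA2B1, SRSF3, SRSF10 and PRPF4, with slopes of 0.38, 0.38, 0.39 and 0.39.

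The classes follow the symbol prefix, so the snRNP proteins here are the SNRP genes only, without proteins of these particles that have other symbols. By class, all 10 tested snRNP proteins had positive slopes (median 0.20), as did 13 of 16 hnRNPs (median 0.16) and 7 of 9 SR proteins (median 0.14). The SF3A and SF3B subunits were nearly flat, at a median of 0.027 with 5 of 6 positive, and the PRPF factors had a median of 0.059 with 5 of 7 positive. U2AF1, which reads the AG at the end of the intron, had a slope of 0.21 and its partner U2AF2, which binds the pyrimidine tract before it, one of -0.037. A further U2AF2 probe set had a slope of 0.19. The differences between classes were not tested. The 6 genes with a negative slope and the smallest p were HNRNPL (-0.14), PRPF3 (-0.096), PRPF19 (-0.095), SRSF8 (-0.057), U2AF2 (-0.037) and SRSF11 (-0.021), each with a limma adjusted p of 0.840 or more. Without the line labelled female 3 the slope was -0.35 for HNRNPL and -0.24 for PRPF3, and it was above 0 for SRSF8 and SRSF11. Under other alternatives the slope was above 0 for PRPF19, at 0.14 without male 1, and for U2AF2, at 0.043 with its probe sets averaged. Of the 19 further probe sets of 16 genes, 16 were tested, and 15 of these had a positive slope, against 50.6% of all tested probe sets.

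**Figure D2:**
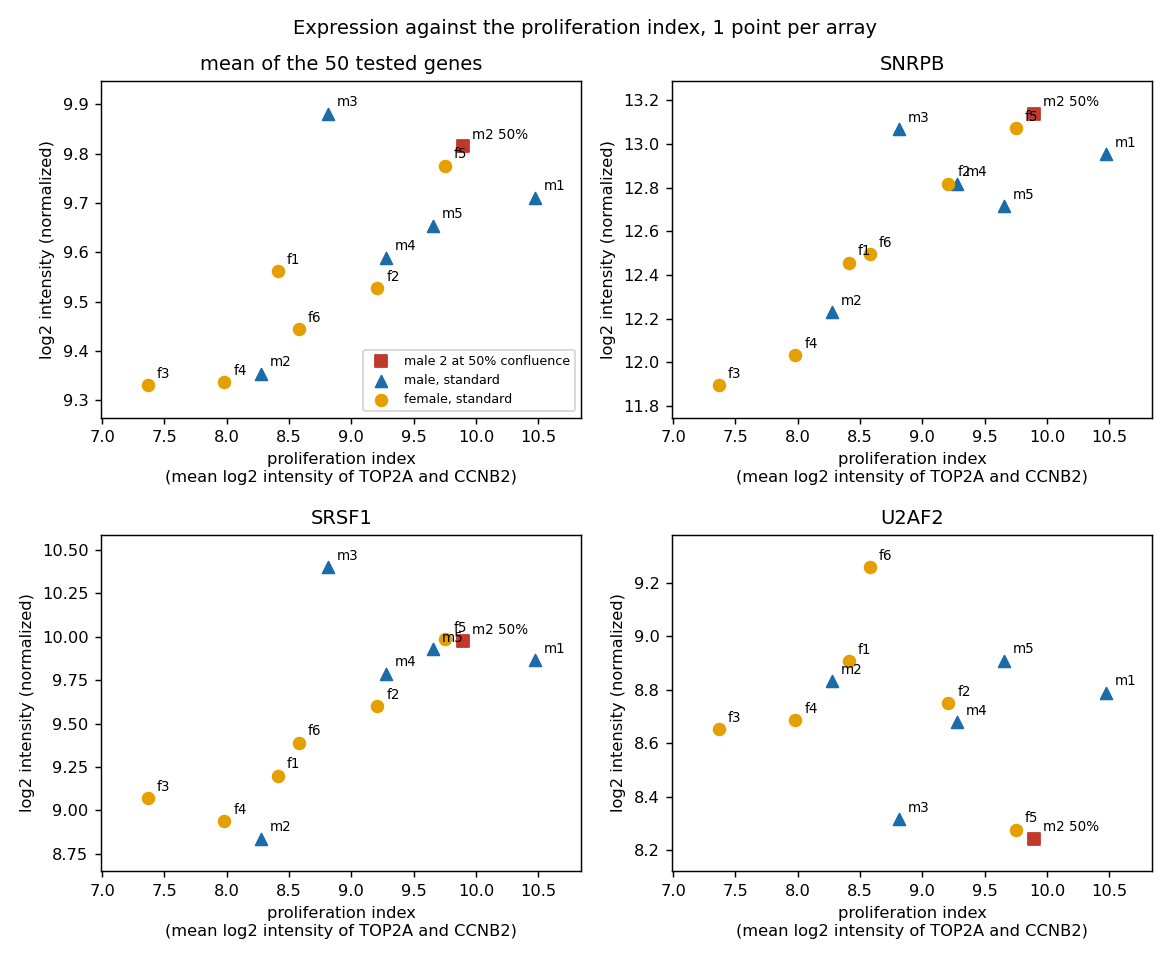
Normalized log2 intensity (vertical axes) against the proliferation index (horizontal axes, mean log2 intensity of TOP2A and CCNB2), 1 point per array, for the mean of the 50 tested genes, SNRPB, SRSF1 and U2AF2. SNRPB stands lowest in female 3, which has the lowest index, and SRSF1 in male 2. In the mean, male 3 lies above the other lines at 9.88. On its chosen probe set U2AF2 shows no upward course, with a slope of -0.037, while a further probe set, not drawn, had 0.19.

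**Figure D3:**
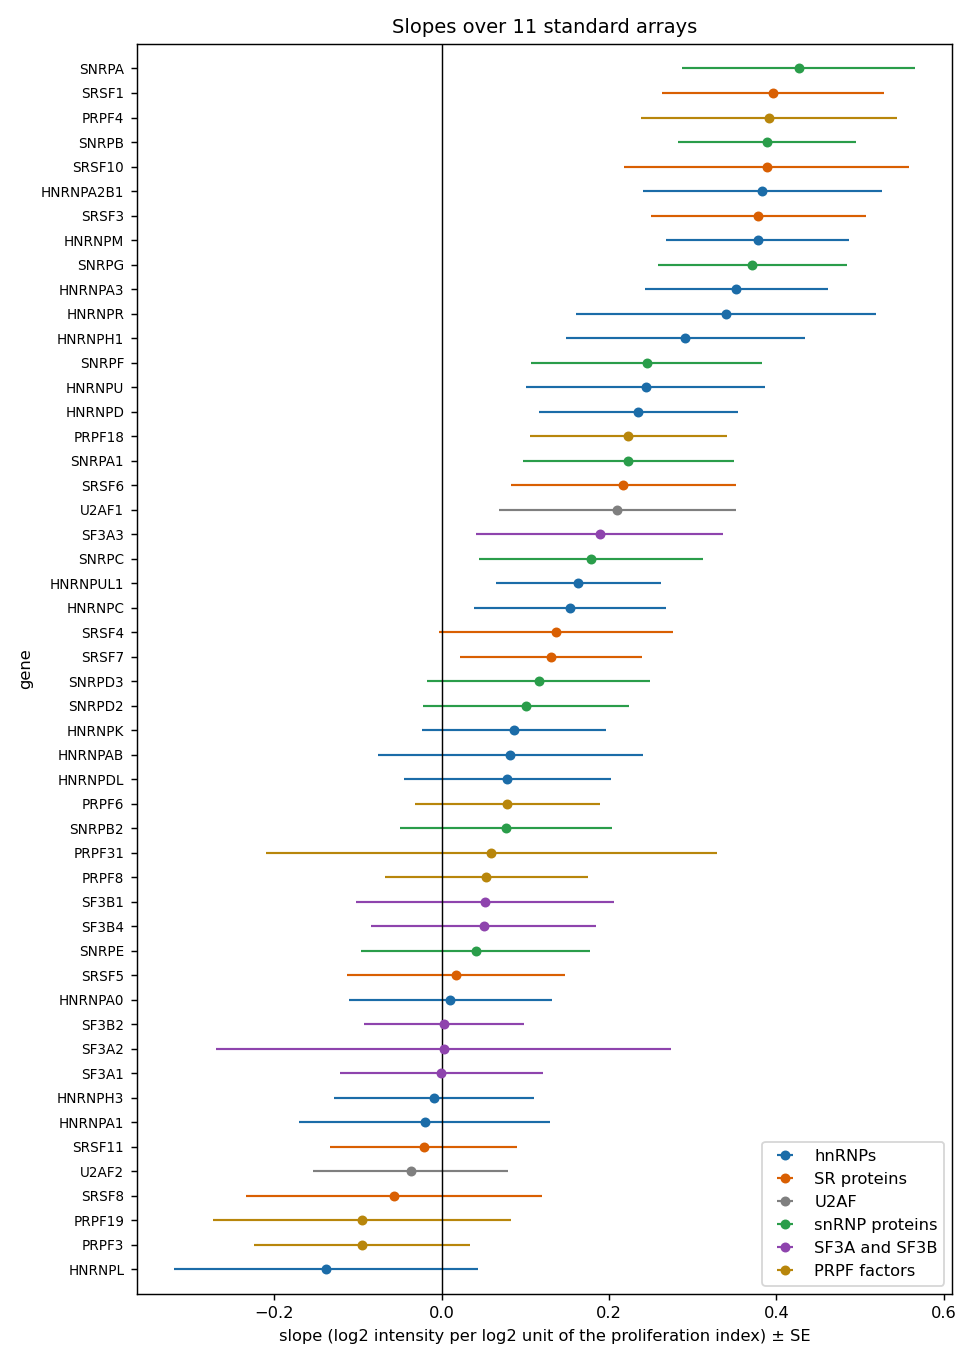
Slope of each of the 50 tested genes with the proliferation index (horizontal axis, log2 per log2 unit) over the 11 standard arrays, with bars of 1 SE and colours for the protein class. Slopes run from -0.14 for HNRNPL to 0.43 for SNRPA, and 41 of 50 are above 0.

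The line of male 3 stood apart from this relation, with the highest mean of the splicing genes at an index of 8.81, in the middle of the range. Its share of probe sets at the floor, 48.8%, was the highest of the standard arrays. With that share as a covariate, 11 genes had a positive slope at an unadjusted p under 0.05, and without male 3 there were 12. Without the line labelled female 3 there were 9, and the 6 leading slopes lay between 0.32 and 0.44. Without male 1 the median slope was 0.21. Without female 5 the count was 8. Without female 3 and male 1, the arrays with the index farthest from its median, it was also 8, with a median slope of 0.25. The count of called probe sets was less stable, at 8 without the line labelled female 3, 23 without male 1, 27 without female 5, 78 without male 3 and 0 without female 3 and male 1. No setting called any of the 50 genes.

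At 50% confluence, most splicing genes were higher in male line 2 than in its standard culture, with 1 array each and so no replicate check and no p-value. CCNB2 had 848 at 50% confluence and 182 in the standard culture, and TOP2A 1142 and 596. The further TOP2A probe sets had 744 and 222, and 394 and 144, in the same order of cultures. Of the 50 genes, 39 were higher at 50% confluence (78%), against 47.8% of the 7535 tested probe sets, with a median difference of 0.58 log2 units (1.49-fold) against 0. With median scaling of the arrays 44 of the 50 were higher, against 70.7% of all tested probe sets, with medians of 1.05 for the genes and 0.43 for all. The excess of the median over that of all tested probe sets was thus 0.58 with quantile normalization and 0.62 with median scaling. With the probe sets of each gene averaged, the median was 0.37. The standard array of male 2 also enters the slopes with the index, so the pair and the slopes are not independent. Of the 50 genes, 8 were higher by 2-fold or more (6.97% of all tested probe sets) and 0 were lower by as much (7.25%). With median scaling 26 were higher by 2-fold or more, against 17.2% of all tested probe sets.

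The hnRNPs held both of the largest differences, those of HNRNPR and HNRNPA2B1. HNRNPR had 612 at 50% confluence and 210 in the standard culture, 3.30-fold after normalization. HNRNPA2B1, a relative of HNRNPA1 that also binds RNA for transport, had 4903 and 1712 (2.70-fold). HNRNPD, known for binding AU-rich RNA and its decay, had 1697 and 725 (2.24-fold). HNRNPA1, a repressor of splice sites, had 1491 and 717 (1.98-fold). Among the 16 hnRNPs 14 were higher, and their median was 0.65. HNRNPA0 and HNRNPL were the exceptions, at -0.13 and -0.11, and with median scaling both were above 0.

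Of the SR proteins 7 of 9 were higher, with a median of 0.76. SRSF11 had 1174 at 50% confluence and 504 in the standard culture (2.33-fold). SRSF1 had 1049 and 470 (2.20-fold), and its further probe set had 280 and 161. SRSF6 had 2276 and 1006 (2.13-fold), and a further probe set 621 and 474. The further probe sets of SRSF3 (0.95) and SRSF10 (0.76) were also higher. SRSF8 counts as higher with 254 and 167 (0.93), but its further probe set had 102 and 165 (-0.20), the other direction. SRSF5 and SRSF7 were lower, with 100 and 149 for SRSF5 and 106 and 177 for SRSF7, in the same order of cultures. SRSF5 was thus at the floor at 50% confluence, and at least 1.49-fold lower there in deposited values, before any scaling between arrays. Its difference was -0.36 after quantile normalization and -0.080 with median scaling. SRSF7, an SR protein with a zinc knuckle, was dim in both cultures.

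All 10 tested genes with a symbol starting with SNRP, called snRNP proteins here, were higher at 50% confluence, with a median of 0.59. Proteins of these particles with other symbols are not counted among them, and some of those were lower. SNRPF, of the Sm ring, had 1716 against 774 in the standard culture (2.11-fold), and SNRPC, of the U1 particle, 1952 against 934 (1.98-fold). SNRPB had 8934 and 4665 (1.88-fold), and its further probe set 4167 and 2821. The remaining 7 ran from 1.10-fold for SNRPD2 to 1.65-fold for SNRPA1. Among them SNRPE had 1581 and 1048, but a dim further probe set of it had 100 and 101.

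The branch point factors and PRPF proteins did not share that direction. Of the SF3A and SF3B subunits, 3 of 6 were higher, with a median of 0.037, SF3A1 (-0.20) and SF3B4 (-0.0028) were below 0, though above it with median scaling, and SF3B1 was at the floor at 50% confluence. Of the PRPF factors, 4 of 7 were higher, with a median of 0.11. PRPF4, a U4 and U6 particle protein, had 289 at 50% confluence and 148 in the standard culture (2.45-fold), but its further probe set had 147 and 205. PRPF31 had 475 and 760 (-0.68), while a further probe set of that gene had 431 and 239 (1.03), the other direction. PRPF3, a partner of PRPF4, had 115 and 239 (-0.67), and PRPF19, a ubiquitin ligase of the activated spliceosome, had 318 and 540 (-0.63). U2AF2 had 280 and 468 (-0.59), and its further probe set 486 and 541 (-0.10). HNRNPU, named after its values were seen, also differed between probe sets, at 0.47 on the chosen one and -1.63 on the other, with 107 and 416.

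**Figure D4:**
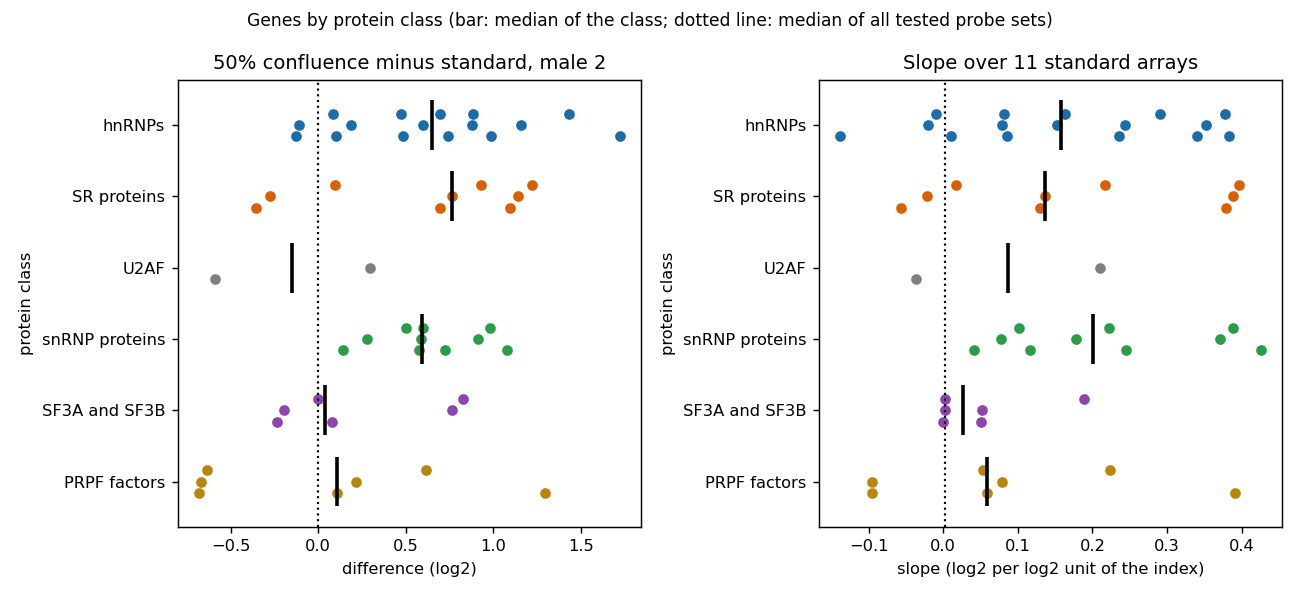
Difference between the culture of male 2 at 50% confluence and its standard culture (left, log2) and slope with the proliferation index over 11 standard arrays (right, log2 per log2 unit), 1 point per gene in rows by protein class, with the class median as a bar and the median of all tested probe sets as a dotted line. The hnRNPs, SR proteins and snRNP proteins have medians of 0.65, 0.76 and 0.59 at left, and the SF3 subunits and PRPF factors 0.037 and 0.11.

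Each array of the pair was also set against the other lines. Against the median of the other 10 standard lines, 40 of 50 genes were higher at 50% confluence (48.7% of all tested probe sets), with a median of 0.22, and 31 were lower in the standard culture of male 2 (49.7%), with a median of -0.23. Of the 8 genes higher by 2-fold or more, 6 had their lowest standard level in male 2. Choosing genes on the difference from that array favours such a count. Its share over all tested probe sets past 2-fold was not counted. The array at 50% confluence was above the range of the 11 standard arrays for 10 of the 50 genes, against 6.6% of all tested probe sets, and below it for 1, U2AF2, against 4.76%. The 10 genes were HNRNPA3, HNRNPD, HNRNPH3, HNRNPUL1, SRSF10, SRSF11, SNRPB, SNRPC, SNRPE and PRPF18. In deposited intensities SNRPB and PRPF18 were within the range, and the other 8 were above it (5.08% of all tested probe sets), while SRSF7, PRPF3 and U2AF2, 3 genes, were below it (6.18%). Of the 10 genes, HNRNPA3, SRSF10, SNRPB and SNRPE had a further tested probe set, and each of these was within the range. That of HNRNPA3 had 151 at 50% confluence (100 to 226 in the standard lines) and that of SRSF10 201 (100 to 354). For SNRPB it had 4167 (2051 to 6487) and for SNRPE 100 (100 to 200). SRSF11 stood farthest out, with 1174 against 444 to 739 in the standard lines, and its slope with the index was -0.021.

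**Figure D5:**
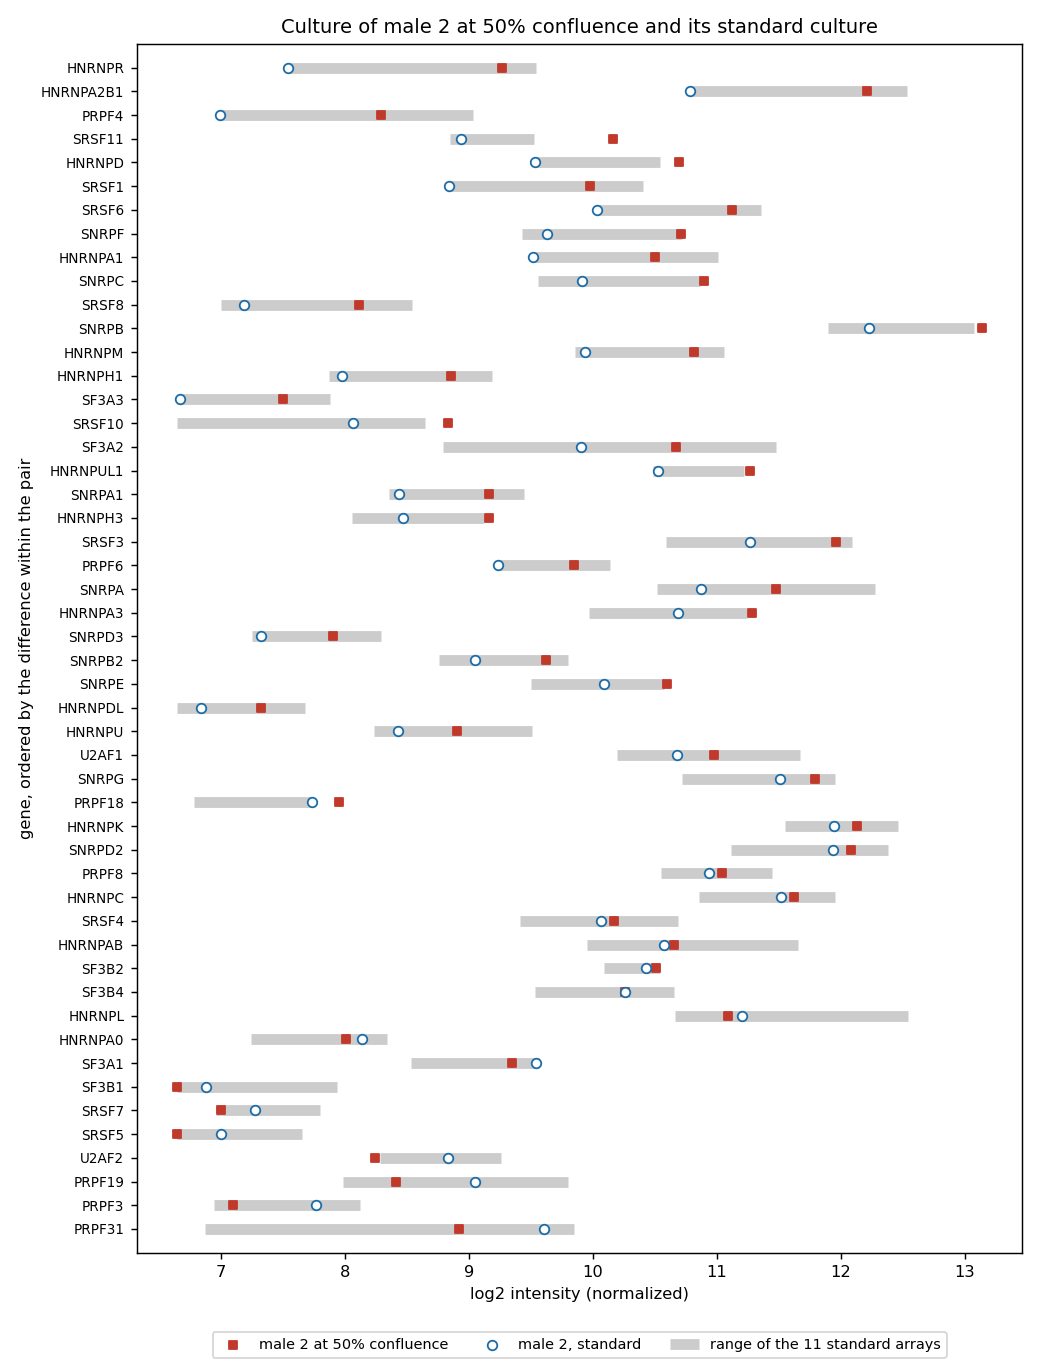
Normalized log2 intensity (horizontal axis) of the 50 tested genes (rows, ordered by the difference within the pair) in the culture of male 2 at 50% confluence (squares), its standard culture (open circles) and over the 11 standard arrays (grey bars, lowest to highest). For 39 genes the square lies to the right of the circle, and for 10 it lies beyond the right end of the grey bar.

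Several measures of the arrays moved with this difference. The share of probe sets at the floor was 49.2% at 50% confluence, the highest of the 12 arrays, and 40.1% in the standard culture, the lowest. GAPDH probe sets at the 3' end, set over those at the 5' end to judge RNA integrity, gave a ratio of 0.990 at 50% confluence and 1.301 in the standard culture, and for ACTB it was 0.857 and 0.865. The summed intensity of the 12 fibroblast markers was 89550 at 50% confluence and 153573 in the standard culture, against 90543 to 153573 over the standard arrays. The 4 leukocyte markers with a probe set summed to 872 at 50% confluence and 1384 in the standard culture, against 791 to 2672 over the standard arrays. The part of these in the result was not tested. By brightness, 21 of 23 splicing genes with a mean above 10 log2 units were higher at 50% confluence, against 53.6% of the 1358 tested probe sets as bright, and 6 of 11 with a mean up to 8 were, against 41.0% of 3450. Of the 16 tested further probe sets, only 9 were higher at 50% confluence, against 47.8% of all tested probe sets and 78% of the chosen ones. The direction of the chosen probe set was shared by 10 of the 16.

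No splicing gene passed the test between male and female lines. limma called 0 of the 50 genes, and 0% of the 7535 tested probe sets. At an unadjusted p under 0.05 there were 2 of the 50 genes, both higher in males, against 5.26% of all tested probe sets. PRPF18, a factor of the last splicing step, had 195, 235, 177, 208 and 220 in males 1 to 5, against 119, a median of 136.5 and 179 as lowest, middle and highest in the females. Its difference was 0.55 (SE 0.18, limma adjusted p = 0.890), and with the floor raised to 200 it was 0.044. In deposited intensities the groups overlapped between male 3 and female 5, and after normalization they did not, with 7.59 as the lowest male and 7.48 as the highest female log2 value. This counts the line labelled female 3, at 7.07, as female, and with it among the males the groups would overlap. How many of all tested probe sets had no overlap was not counted. SNRPG had 4010, 2804, 4042, 3148 and 3293 in males 1 to 5, against 1754 to 3688 in the females with a median of 2179.5. Its difference was 0.55 (SE 0.21, limma adjusted p = 0.890), or 0.50 without the line labelled female 3.

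HNRNPA3 (0.41) and SNRPC (0.40) followed with positive differences, and HNRNPDL (-0.25), PRPF31 (-0.45), SRSF5 (-0.15) and SRSF8 (-0.20) had the smallest p among the negative ones, with limma adjusted p from 0.890 to 0.949. Without the line labelled female 3 the differences were 0.54 for PRPF18, 0.32 for HNRNPA3, 0.43 for SNRPC, -0.28 for HNRNPDL, -0.46 for PRPF31, -0.23 for SRSF5 and -0.12 for SRSF8, and limma called 1 of all tested probe sets and 0 of the 50 genes. Without male 4 the difference of PRPF31 was -0.0050. Of the 50 genes, 39 had a higher mean in male lines, against 3677 of the 7535 tested probe sets. The median difference was 0.16, against -0.0088 over all tested probe sets. Many of these genes were high or low in the same lines, so they are not separate observations. The index itself stood at 10.47, 8.27, 8.81, 9.28 and 9.65 in males 1 to 5, against 7.36 to 9.75 in the females, so the sexes overlapped. Its part in the sex differences was not tested, and with sex as a covariate 9 genes had a positive slope with the index at an unadjusted p under 0.05.

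Donor age, with sex as a covariate, gave no call either. limma called 0 of the 50 genes and 0% of all tested probe sets, and at an unadjusted p under 0.05 there were 3 of 50 genes, against 5.44% of all tested probe sets. The slopes were split evenly, with 26 of 50 positive and a median of 0.0059 log2 units per 10 years. SF3B1, the SF3B subunit that contacts the branch point, had a slope of -0.33 (SE 0.11, limma adjusted p = 0.850). Intensities of 100 to 175 in adult lines, with 4 of the 11 arrays at the floor, stood against 207 and 259 in lines of donors aged 2 and 3. Its slope was -0.098 in adults and -0.049 with the floor raised to 200. SF3A1 had a slope of 0.23 (SE 0.091, limma adjusted p = 0.850) and U2AF2 one of -0.20 (SE 0.094, limma adjusted p = 0.901), and a further U2AF2 probe set had one of 0.25. PRPF8 (0.20), the catalytic core protein of the U5 particle, SNRPE (0.17), SNRPD2 (0.16), HNRNPH1 (-0.25) and SF3A3 (-0.23) were next. In adults the slope was -0.13 for SNRPD2, the other sign, -0.0071 for HNRNPH1 and 0.025 for PRPF8. With the probe sets of each gene averaged the sign turned for SNRPE (-0.031) and U2AF2 (0.021), and with the floor raised to 200 SF3A3 had -0.019. Without the line labelled female 3, the oldest donor, these 8 slopes kept their signs, from -0.43 for SF3B1 to 0.27 for SF3A1, and SF3A3 had -0.17.

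A list of 95 other splicing genes, drawn up with earlier results of these data known, was read the same way. Of these, 76 had a probe set with 1 symbol and 65 were tested. With the index, 53 of 65 had a positive slope (median 0.13), 9 of them at an unadjusted p under 0.05, and 1 had a negative slope at that level, against 50.6%, 5.98% and 5.23% of all tested probe sets. limma called 0 of 65. The following genes were named after their values were seen. KHDRBS1, an RNA-binding protein of signalling pathways, had a slope of 0.40 (limma adjusted p = 0.156), FUBP1 0.40 (0.225) and the U6 ring protein LSM3 0.36 (0.285), while SART3, a recycling factor of the U6 particle, had -0.24 (0.435). In the pair of cultures 42 of 65 were higher at 50% confluence, with a median of 0.24, against 47.8% of all tested probe sets. By 2-fold or more 2 of 65 were higher, a smaller share than the 6.97% of all tested probe sets. These were TRA2B, an SR-like regulator of exons, with 473 against 208 in the standard culture, and the helicase gene DHX15, with 648 against 325. For sex and age limma called 0 of the 65.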

How the data were processed

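Expression was measured on 12 arrays, and the authors deposited 1 whole-number intensity per probe set and array on a linear scale. Not given in the sources used here were the summarising software, the scaling and the origin of the floor at 100. Genes were named from the platform annotation, and the symbols were matched to RefSeq genes of the gorilla (NHGRI_mGorGor1-v2.1). The 67 control probe sets were left out, as were 11 probe sets with several symbols of which any fitted the rule.

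Array medians differed by more than 0.1 log2 units (6.71 to 7.21), so log2 intensities were quantile normalized over all 12 arrays. Probe sets with a mean over the 11 standard arrays above the 40th percentile (6.80 log2 units) were tested. Sex, age and the proliferation index (without the probe sets of TOP2A and CCNB2) were fitted over all tested probe sets with limma 3.58.1 in R 4.3.3, calling at a Benjamini-Hochberg adjusted p under 0.05. The sex and index fits were tried on simulated data with independent noise per probe set, no floor and larger effects than those of the splicing genes. Effects as small as theirs were not checked in this way. The pair of cultures has no test.

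Named genes were the 6 smallest p per direction for the index, 4 for sex and age, the 10 largest differences per direction for confluence (where the brighter value exceeded its array's median), the 8 largest and 4 smallest SDs, and genes whose probe sets disagreed by over 0.5 log2 units each way. The members and lists were chosen with earlier results of these data known. Alternatives changed the scaling, filter, floor, probe set, covariates and arrays.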

Additional observations from a re-analysis of the deposited data

Results flagged for a closer look

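Within the 5 male or the 6 female standard arrays, 3 of 100 groups of values (50 genes in 2 sexes) held an array farther from the others than Dixon's critical value allows, on log2 of the deposited intensities. Chance flags about 1 in 20 such groups. HNRNPA0, an hnRNP that binds AU-rich RNA, had 140 in female 4, against 239 to 273 in the other females. HNRNPH3 had 559 in male 3, against 342 to 374 in the other males. PRPF6, which bridges the U5 and the U4 and U6 particles, had 1002 in female 4, against 738 to 827 in the other females. No slope of the 50 genes with age or with the index differed between the sexes at an adjusted p under 0.05 (limma interaction, 0 probe sets called in either fit, against 282 for age and 329 for the index at an unadjusted p under 0.05, with 2 of the 50 splicing genes among those for the index).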

How the results depend on the processing

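The counts of called splicing genes stayed at 0 for sex, age and the index under every alternative run. The count of genes with a positive slope at an unadjusted p under 0.05 ran from 8 to 12 over all alternatives, and likewise with each array left out in turn. The median SD ran from 0.361 to 0.414 with each array left out. The median difference at 50% confluence was 1.05 with median scaling, where that of all tested probe sets was 0.43, and 0.37 with the probe sets of a gene averaged. It was 0.22 against the other 10 lines, a setting chosen after seeing the data. Higher by 2-fold or more were 26 genes with median scaling (17.2% of all tested probe sets), against 8, and 1 gene, PRPF3, was lower by as much in values as deposited. Probe sets called for the index were 12 without the filter, 26 with the floor of 200, 17 with TOP2A alone and 15 with sex as a covariate, against 44. Values at the floor are upper limits on the signal only, which touches 5 of the 50 genes on standard arrays.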
